A study of Mus musculus with 9 samples.

Results

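The Slc30 genes encode the ZnT zinc transporters, and 8 of the 10 Slc30 genes in the count tables were followed here: Slc30a1, Slc30a3, Slc30a4, Slc30a5, Slc30a6, Slc30a7, Slc30a9 and Slc30a10. The tables held 32661 genes besides spike-ins and mitochondrial entries. The genes were selected on their measured counts, with their levels by sort and by stage in these samples already known. The selected gene with the fewest counts in the kept cells was Slc30a6 with 536, whereas the 2 genes left out had 6 (Slc30a8) and 2 (Slc30a2). These values chose the genes and are given as a description.

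ZnT proteins move zinc out of the cytosol, either across the plasma membrane or into vesicles and organelles, and the ZIP proteins of the Slc39 family move it into the cytosol. Slc30a3 encodes ZnT3, which loads zinc into synaptic vesicles and is best known from glutamatergic terminals of the forebrain. Slc30a1 encodes a zinc exporter of the plasma membrane, and Slc30a10 an exporter best known for manganese. The products of Slc30a5 and Slc30a6 act as a pair in the secretory pathway, where that of Slc30a7 also works. The product of Slc30a4 is found in intracellular vesicles, and that of Slc30a9 in mitochondria.

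Single cells were taken by fluorescence-activated sorting from the ventral midbrain of VGAT:Ai14:PITX3-GFP mice and sequenced by SORT-seq, in which each well of a plate holds 1 sorted cell and the 3' ends of mRNA molecules are counted. In these mice, Cre driven from the gene of the vesicular GABA transporter (Slc32a1, VGAT) turns on tdTomato for good, so that the red protein marks cells that have ever expressed it, and GFP marks cells that express Pitx3, a transcription factor of midbrain dopamine neurons. All groups carried these 3 alleles, and no agent was given. Cells with tdTomato were placed on 4 plates at embryonic day 16 (E16) and on 3 plates at postnatal day 0 (P0), called VGAT plates, and cells with tdTomato and GFP on 1 plate per stage, called VGAT+PITX3 plates. The brains of several litters were used, and nothing ties a plate to an animal, so that p-values cover the spread between plates only, which may be technical.

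After filtering, 2035 of 3455 wells remained, 1460 of them on VGAT and 575 on VGAT+PITX3 plates. Plates had between 44 cells (VGAT P0 replicate 1) and 305 cells and between 1435919 and 5408710 counts, so that 3 counts correspond to between 0.555 and 2.09 CPM (counts scaled to a common library size). The well names were those of the 384 positions of a plate, of which 383 occurred on all plates, and 0 kept cells had identical counts. The cell names also carry a second plate label, which gives another stage for 4 plates, and the first label was used. The second label further holds a letter, s or d, whose meaning is not given in the sources used here. The letter d stands on VGAT E16 replicate 4 and VGAT P0 replicate 3, and s on the other plates, so that it does not follow the sort of the first label. With stage from the first label, 624 genes differed between the stages on VGAT plates, and with stage from the second label, 1 gene did (0 members in either case). With a plate left out, the first label gave between 76 and 833 genes (76 without VGAT P0 replicate 3, 92 without VGAT E16 replicate 3, 833 without VGAT E16 replicate 2). Pitx3 lay at 142 and 74.5 CPM on the plates labelled VGAT+PITX3 and at or under 0.370 CPM on the others. The markers of the sorts were present: Gad1, which encodes a GABA-synthesizing enzyme, was found in 98.6% of VGAT cells, and the dopamine transporter gene Slc6a3 in 56.3% of VGAT+PITX3 cells. The latter cells also carried Slc32a1 (69.9%) and Gad2 (74.1%), but Gad1 in only 2.96%. Of 6 markers of astrocytes and radial glia, between 4 and 6 had counts on a plate, and Gfap had counts on 2 of 9 plates. Their summed level was 395 CPM on VGAT P0 replicate 2, between 9.61 and 19.8 CPM on the other VGAT plates, and 155 and 144 CPM on the VGAT+PITX3 plates.

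Slc30a3 was the member that set the sorts apart. Its gene lies on the minus strand of chromosome 5 at chr5:31086106-31108237 (GRCm38). RefSeq gives it a pair of start sites. The windows of 300 bases around them are shown because this member carries the difference between the sorts. In capitals is each match to GATA on either strand, the core of the sites of GATA factors, and to CANNTG, the E-box that Tal1 and its partners bind. Both families include genes of the VGAT cells described below.

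Slc30a3 window 1, chr5:31108195-31108494, minus strand: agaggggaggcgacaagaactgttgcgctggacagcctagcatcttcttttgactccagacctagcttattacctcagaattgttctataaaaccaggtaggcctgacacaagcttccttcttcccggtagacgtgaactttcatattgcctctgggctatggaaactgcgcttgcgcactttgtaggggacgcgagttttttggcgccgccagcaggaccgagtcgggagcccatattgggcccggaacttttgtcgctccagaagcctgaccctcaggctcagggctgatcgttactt
Slc30a3 window 2, chr5:31093478-31093777, minus strand: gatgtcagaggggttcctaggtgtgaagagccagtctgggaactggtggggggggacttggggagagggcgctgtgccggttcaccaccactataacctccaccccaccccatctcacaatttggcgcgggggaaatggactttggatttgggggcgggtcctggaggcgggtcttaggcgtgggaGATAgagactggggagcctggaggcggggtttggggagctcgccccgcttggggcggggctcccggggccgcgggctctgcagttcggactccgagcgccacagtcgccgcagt

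The first window held 0 matches to either motif, and the second held 1 match to GATA and 0 to CANNTG. Of 32851 promoter windows of the same length, 57.9% held GATA and 72.3% CANNTG. The counts do not tell which start site was used.

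On the VGAT plates at E16, Slc30a3 lay at 106, 108, 95.8 and 96.4 CPM, and at P0 at 106, 110.0 and 127 CPM. On the VGAT+PITX3 plates it lay at 0.905 CPM at E16 and 0.449 CPM at P0. The groups did not overlap, and the lowest VGAT plate was far above both VGAT+PITX3 plates. These levels rest on between 158 and 580 counts per VGAT plate against 4 counts and 1 count. From the summed counts, the ratio of VGAT to VGAT+PITX3 cells was 116 at E16 (95% interval 45.4 to 427) and 281 at P0 (50.3 to 11114). Both stages together gave 147 (62.9 to 453). These exact intervals cover counting error only, and each stage has 1 VGAT+PITX3 plate.

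**Figure D1:**
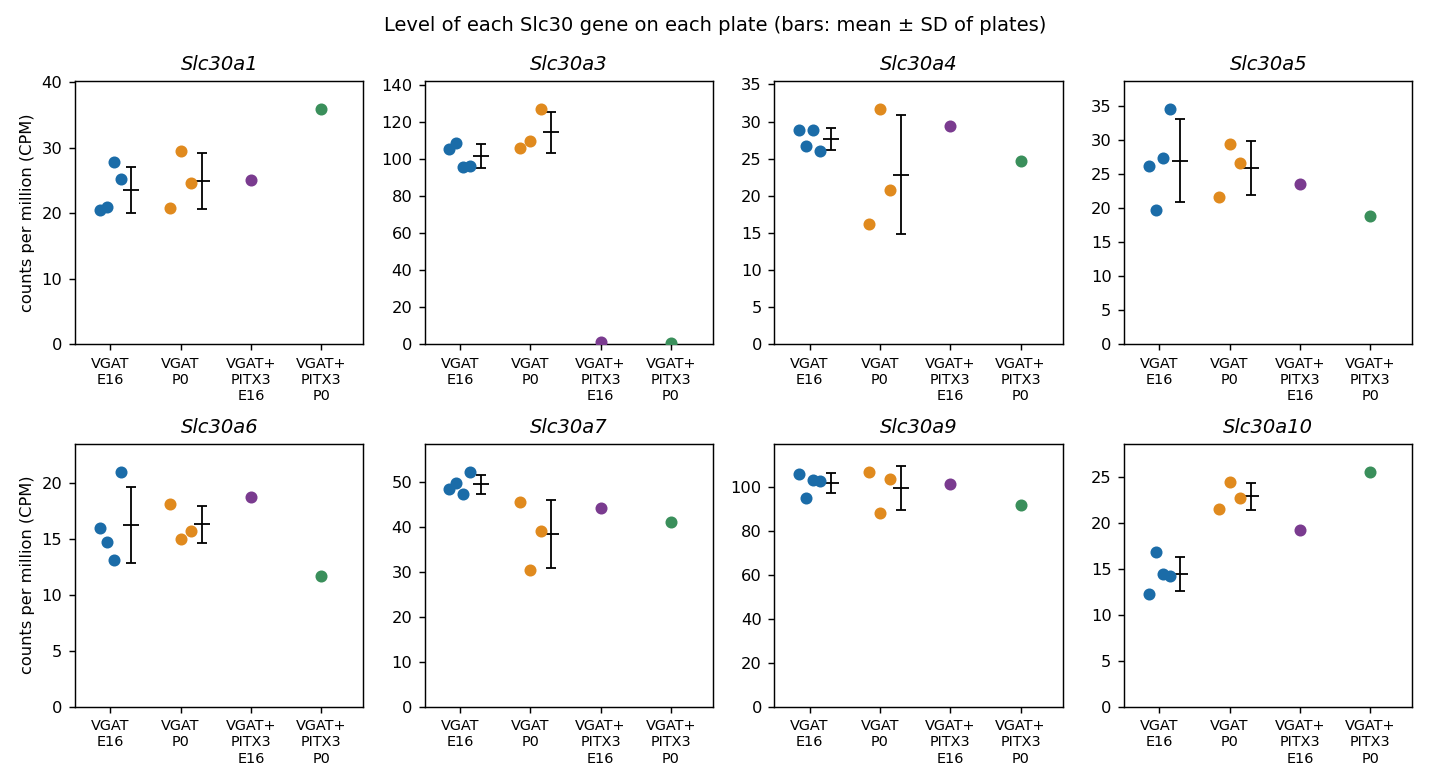
Level in CPM (vertical axes, from 0) of each of the 8 genes on each of 9 plates (points), in 4 groups, with mean and SD where a group has more than 1 plate. Slc30a3 lies between 95.8 and 127 CPM on the 7 VGAT plates and under 1 CPM on both VGAT+PITX3 plates, and Slc30a10 is lower on each VGAT plate at E16 than on each at P0.

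In the fit across all genes with stage as a covariate (edgeR, 9 plates), Slc30a3 was lower on VGAT+PITX3 plates by a log2 difference of -7.08 (SE 0.27, adjusted p = 3.82e-10). The fitted value of a gene with so few counts in a group depends on the prior count. The gene was picked with this contrast known, and it passed the filter on low counts through the VGAT plates, so that the p-value is no independent evidence. In this comparison 8.93% of 14624 genes passed the threshold of 0.05, and in 14.4% the groups of plates did not overlap. Without the VGAT+PITX3 plate at E16, 625 genes passed it in place of 1306. Of the 8 members, Slc30a3 alone passed the threshold and Slc30a3 alone had groups that did not overlap.

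The share of cells with at least 1 Slc30a3 count was 65.6% of 1460 VGAT cells. It was 0.696% of 575 VGAT+PITX3 cells (4 cells, 95% Clopper-Pearson interval 0.190 to 1.77%). Median depth was 16399 and 10490.5 counts per cell. After each cell had been thinned to 4000 counts, which left out 79 cells, the share was 30.1 ± 4.14% (SD, n = 4 plates) in VGAT cells at E16 and 34.7 ± 3.02% (n = 3) at P0. On the VGAT+PITX3 plates it was 0.669% and 0.402%. At equal depth too, the lowest VGAT plate (25.6%) was above both VGAT+PITX3 plates. In VGAT cells the count of Slc30a3 reached 19 in a cell, with a median of 1, and 27.9% of the cells had 3 or more counts, against 0 of 575 VGAT+PITX3 cells. A count of 0 is taken to allow up to 3 cells, here a share of 0.522%, which is a rougher limit than the Clopper-Pearson interval. These intervals and limits cover counting error in pooled cells only, and the VGAT+PITX3 cells come from 2 plates.

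**Figure D2:**
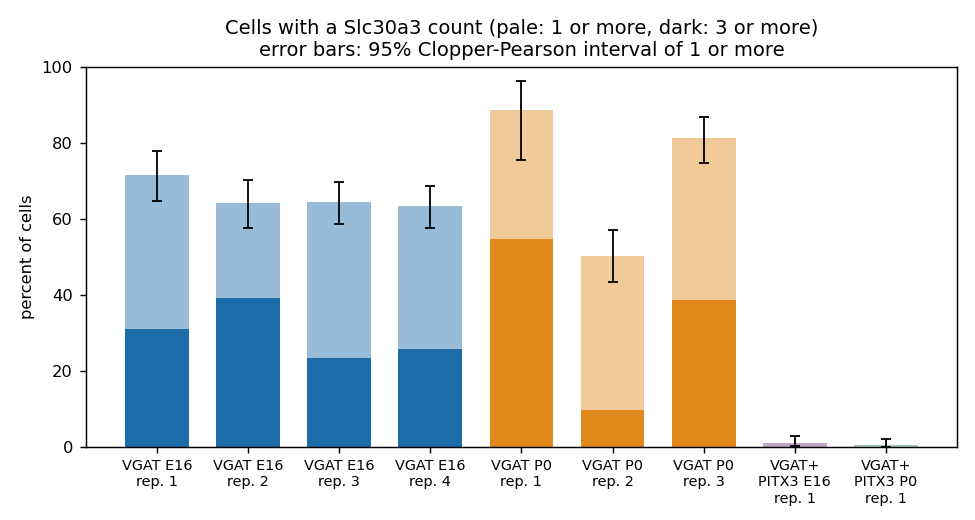
Percent of kept cells (vertical axis) with at least 1 (pale) or at least 3 (dark) Slc30a3 counts on each plate, without thinning, with 95% Clopper-Pearson intervals of the pale bars. VGAT plates lie between 50.2% and 88.6%, with the lowest value on the shallow plate VGAT P0 replicate 2, and VGAT+PITX3 plates at 0.987% and 0.369%.

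The 4 VGAT+PITX3 cells with a Slc30a3 count held 1, 1, 2 and 1 counts of it. All 4 had 0 counts of Pitx3 and of Slc6a3, and 0 or 1 count of Th, which encodes the rate-limiting enzyme of dopamine synthesis. Over all VGAT+PITX3 cells, Pitx3 was found in 54.6% and Th in 64.3%, so that 0 counts of either were common there. The total depth of the 4 cells was between 3946 and 18559 counts. All 4 also had 0 counts of Gata3 and Tal1. All 4 carried Slc32a1 (between 3 and 12 counts) and Gad2 (between 1 and 18 counts), and 1 of the 4 carried Gad1 (2 counts). None of the 324 VGAT+PITX3 cells with a Slc6a3 count had a Slc30a3 count. The upper end of the 95% Clopper-Pearson interval was 1.13%, and the limit of 3 cells is 0.926%. Of the 426 VGAT+PITX3 cells with a Gad2 count, 4 had one (0.939%), and of the 402 with a Slc32a1 count, 4 had one (0.995%). Of the 17 with a Gad1 count, 1 had one (5.88%, 95% Clopper-Pearson interval 0.149 to 28.7%), too few cells to set beside the others. The sorts also differed in markers of other cells, with 7 dopamine neuron markers (between 5 and 7 of them with counts on a plate) summing to between 63.4 and 144 CPM on VGAT plates and to 5236 and 4027 CPM on VGAT+PITX3 plates. The glutamate transporter gene Slc17a6 was found in 2.53% of VGAT and 54.1% of VGAT+PITX3 cells. The part of these differences in the Slc30a3 values was not tested.

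The genes most like Slc30a3 over the 9 plates, by Pearson's r of log2(CPM + 1), were Gad1 (0.997), Tal1 (0.995) and Cited2 (0.993). Tal1 encodes a transcription factor that the paper describes as needed by neurons of hindbrain origin, and Cited2 a transcriptional co-regulator. Gad1 lay between 796 and 1210 CPM on VGAT plates and at 10.3 and 14.5 CPM on VGAT+PITX3 plates. Tal1 lay between 120 and 185 CPM and at 0.449 and 1.81 CPM. Cited2 lay between 45.8 and 57.8 CPM and at 17.0 and 17.4 CPM. The plates form 2 clusters by sort, which sets these values: 92 genes had an r over 0.95, and over the 7 VGAT plates alone r was 0.23 for Gad1, -0.17 for Tal1 and 0.49 for Cited2.

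Slc30a3 was not even among VGAT cells. Gata3 encodes a transcription factor of the GATA family. The Dlx genes mark GABA neurons of the forebrain. The split by these genes was chosen after the values had been seen and is given without a test. On 6 VGAT plates with at least 10 cells on either side, Slc30a3 lay at 114 ± 14.2 CPM in 1145 cells with Gata3 and at 67.2 ± 31.6 CPM in 271 cells without it (SD over plates), higher with Gata3 on 6 of 6 plates. At E16 the gap was widest on replicate 2 (127 against 30.1 CPM) and smallest on replicate 3 (98.0 against 65.3 CPM). At P0 it was 135 against 108 CPM on replicate 3 and 113 against 100.2 CPM on replicate 2. Cells with Tal1 likewise had more than cells without it on 6 of 6 plates, at 114 ± 15.9 against 81.2 ± 30.7 CPM. The gap by Tal1 was widest on VGAT E16 replicate 2 (133 against 33.1 CPM). It was smallest on VGAT P0 replicate 2, where the levels were nearly equal (110.9 against 109.2 CPM). Cells with a count of Dlx1, Dlx2, Dlx5 or Dlx6 had less on 5 of 5 plates, at 57.9 ± 24.7 CPM in 245 cells against 114 ± 13.0 CPM in 1000 cells without. Slc30a9 lay between 85.6 and 108 CPM with Gata3 and between 81.4 and 128 CPM without it, higher with Gata3 on 4 of 6 plates. Slc30a6 lay the other way in the Tal1 split, between 12.7 and 18.8 CPM with Tal1 and between 12.9 and 35.5 CPM without it, lower with Tal1 on 6 of 6 plates. Cells without Gata3 were shallower, with plate medians between 5303 and 16318 counts against between 7599 and 24266 with it. Cells without Tal1 were shallower too, with plate medians between 5583 and 16776.5 counts against between 8070 and 24284 with it. Median depth was between 6350 and 22153 counts in cells with a Dlx gene and between 7295 and 22595 in those without. A marker is found more often in deeper cells, and the part of depth in these splits was not tested.

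**Figure D3:**
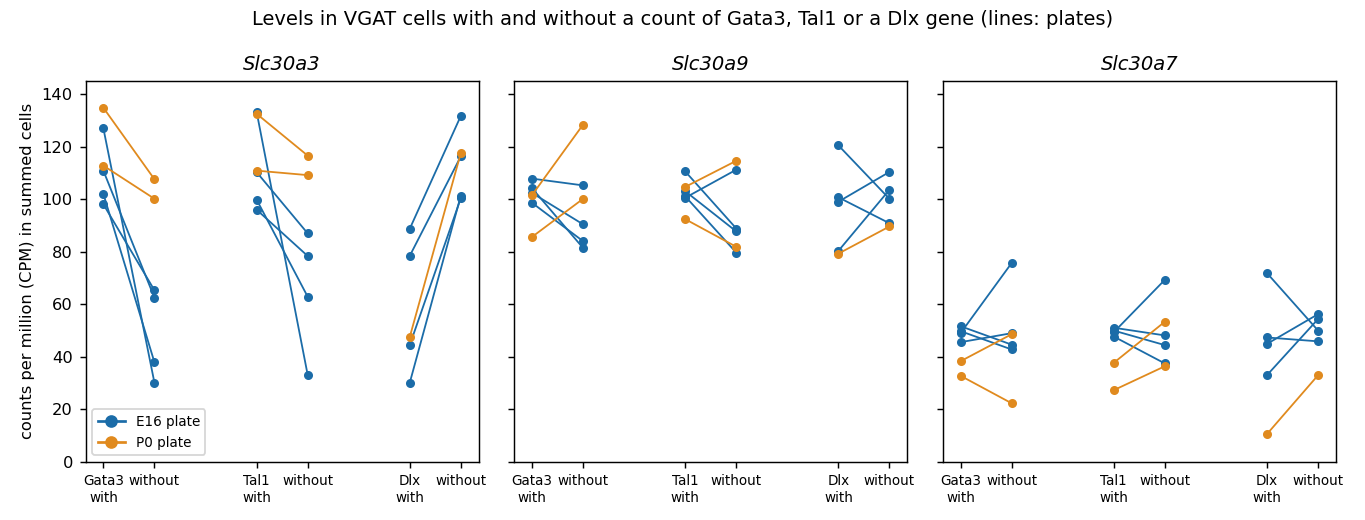
Levels in CPM (vertical axis) of Slc30a3, Slc30a9 and Slc30a7 in summed VGAT cells with and without a count of Gata3, Tal1 or any of 4 Dlx genes, 1 line per plate with at least 10 cells on either side. The lines of Slc30a3 fall from cells with to cells without Gata3 on 6 of 6 plates and rise from cells with to cells without a Dlx gene on 5 of 5 plates, while those of Slc30a9 and Slc30a7 run in both directions.

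Cells were also grouped by carrying 1 of 6 marker genes of regions or cell types and none of the other 5. Over plates with at least 10 such cells, Slc30a3 lay at 109 ± 18.3 CPM (SD, 6 plates) in Six3 cells and at 106 ± 17.3 CPM (3 plates) in Pax5 cells, the 2 markers of nigral GABA neurons. It lay at 126 ± 24.6 CPM (5 plates) in Nkx2-2 cells and at 117 CPM on the 1 plate with enough Pax7 cells. The Otx2 cells of VGAT plates had 67.6 ± 17.6 CPM (2 plates, 39 cells). The ranges over plates of Six3, Pax5 and Nkx2-2 cells overlapped, and the 1 value of Pax7 cells lay within them. The Otx2 cells had the lowest values, 55.1 and 80.1 CPM, from 10 and 26 counts on VGAT E16 replicates 3 and 4. On the same 2 plates, Six3 cells had 90.9 and 94.9 CPM, Pax5 cells 96.9 and 95.2 CPM, and Nkx2-2 cells 113 and 115 CPM. On the VGAT+PITX3 plates, Slc30a3 had 0 counts in 275 Slc6a3 cells and 0 counts in 26 Otx2 cells. The same Slc6a3 cells had Slc30a9 at 95.8 and 105 CPM, Slc30a4 at 24.6 and 25.5 CPM and Slc30a10 at 14.1 and 16.3 CPM on the 2 plates.

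Six3 and Pax5 cells of the VGAT plates were also compared with counts summed per plate, over cells with 1 of these markers and without the other. The remaining markers were not excluded here, so that these cells need not be nigral. On VGAT E16 replicate 1 this gave 131 Six3 cells, against 51 in the grouping above. In this comparison 2.82% of 11773 genes passed the threshold and 0 of 8 members did (edgeR, plate as a block, 7 plates). With DESeq2 the count of members was also 0 (269 genes over all), and 0 members had an unadjusted p under 0.05 (1286 of 11773 genes with edgeR). Slc30a3 differed by a log2 of 0.08 (95% interval -0.22 to 0.39), at 112 ± 12.4 CPM in Six3 and 98.0 ± 33.7 CPM in Pax5 cells. The widest differences were those of Slc30a6, with a log2 of 0.48 (-0.18 to 1.14), higher in Six3 cells on 7 of 7 plates, and of Slc30a10, with -0.41 (-0.98 to 0.16), higher in Six3 cells on 2 of 7 plates and at -0.16 without VGAT E16 replicate 3. Pax5 cells numbered 5, 5 and 7 on 3 of the plates, and differences of this size were not resolved.

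Between the stages, the plasma membrane exporter gene Slc30a10 (chr1:185454848-185468762, plus strand) came closest to the threshold without passing it. On the VGAT plates at E16 it lay at 12.3, 16.8, 14.5 and 14.3 CPM, and at P0 at 21.5, 24.4 and 22.8 CPM. The groups did not overlap. On the VGAT+PITX3 plates it lay at 19.2 CPM at E16 and 25.6 CPM at P0. The log2 difference of P0 to E16 on VGAT plates was 0.67 (SE 0.18, 95% interval 0.28 to 1.06, adjusted p = 0.0528, edgeR). Without VGAT E16 replicate 2 the adjusted p was 0.0388, and it lay between 0.0388 and 0.147 over 15 alternatives. With stage from the second label, the difference was -0.08. Of 13639 genes, 4.58% passed the threshold in this comparison, and in 20.6% the groups of plates did not overlap. With a plate left out, between 76 and 833 genes passed in place of 624. After thinning, 5.95 ± 2.82% of VGAT cells at E16 (n = 4) and 9.79 ± 1.84% at P0 (n = 3) had a Slc30a10 count. The glial marker sum was 395 CPM on VGAT P0 replicate 2, 19.5 and 19.1 CPM on the other P0 plates, and between 9.61 and 19.8 CPM at E16. Without VGAT P0 replicate 2 the log2 difference of Slc30a10 was 0.61 (adjusted p = 0.139, edgeR). The summed level of 6 microglia markers was 56.8 CPM on that plate and 39.6 CPM on VGAT E16 replicate 2, with counts of 6 of 6 markers on both, and between 2.55 and 6.29 CPM on the other VGAT plates. The part of these cells in the Slc30a10 values was not tested.

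Slc30a7 (chr3:115938973-116007406, minus strand), a transporter gene of the secretory pathway, lay the other way. It had 48.5, 49.9, 47.3 and 52.3 CPM on the VGAT plates at E16 and 45.7, 30.6 and 39.1 CPM at P0. Each P0 plate was below each E16 plate, and the lowest was VGAT P0 replicate 2. The log2 difference was -0.36 (SE 0.15, 95% interval -0.67 to -0.05, adjusted p = 0.153, edgeR), and -0.24 without that plate. Over the same 15 alternatives the adjusted p lay between 0.0804 and 0.375. On the VGAT+PITX3 plates Slc30a7 lay at 44.3 CPM at E16 and 41.3 CPM at P0.

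In all, 0 of 8 members passed the threshold between the stages, with DESeq2 as with edgeR, and 2 had an unadjusted p under 0.05, as had 3284 of 13639 genes. The groups did not overlap for 2 of 8 members, Slc30a10 and Slc30a7, close to the share over all genes. Slc30a3 differed between the stages by a log2 of 0.19 (-0.06 to 0.44). The median log2 difference was -0.01 over the members and 0.02 over all genes. The widest of the other intervals was that of Slc30a6, from -0.46 to 0.47, and the mitochondrial Slc30a9 had the narrowest, from -0.26 to 0.22 (chr5:67306955-67358443, plus strand). None of these intervals shows equal levels.

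**Figure D4:**
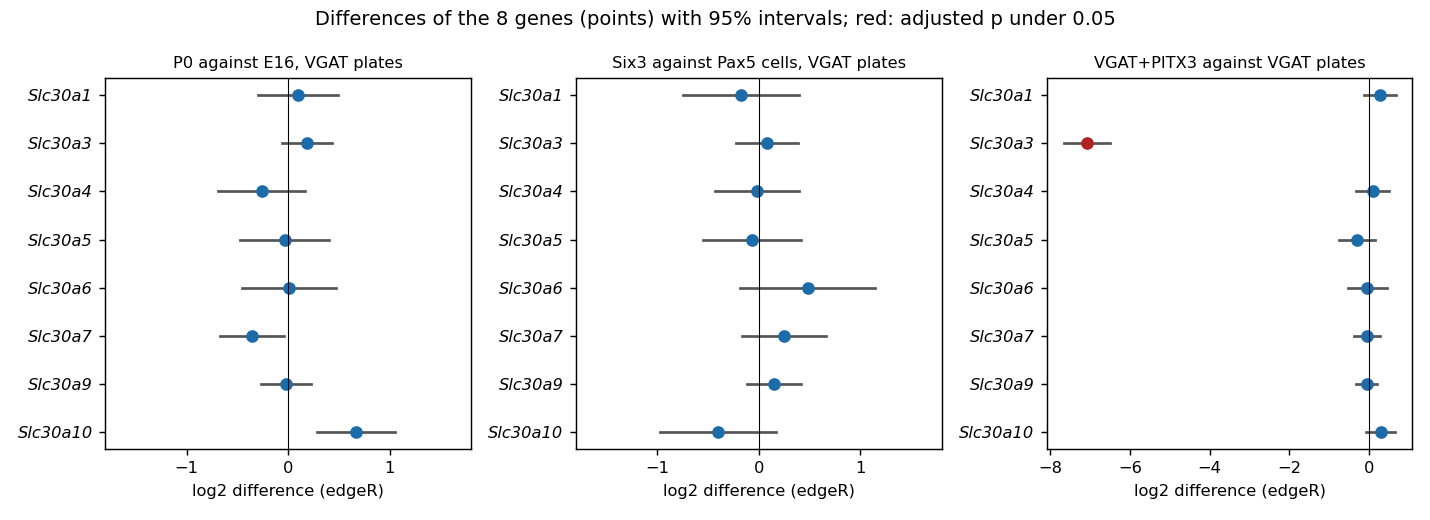
Log2 differences (horizontal axes) of the 8 genes with 95% intervals in 3 comparisons, from edgeR fits across all genes, with the axis of the third drawn on a wider scale. Slc30a3 is at -7.08 between the sorts, all other members lie within 0.7 of 0 in all 3 comparisons, and the stage intervals of Slc30a10 and Slc30a7 leave out 0 although both miss the threshold after adjustment.

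The other 7 members did not pass the threshold between the sorts. Slc30a9 lay between 88.3 and 107 CPM on VGAT plates and at 102 and 91.9 CPM on VGAT+PITX3 plates, with a log2 difference of -0.06 (-0.31 to 0.20). Slc30a7 differed by -0.05 (-0.37 to 0.28) and Slc30a4 (chr2:122681233-122702663, minus strand) by 0.10 (-0.32 to 0.51). The pair of the secretory pathway had -0.30 (-0.76 to 0.15) for Slc30a5 (chr13:100802648-100833427, minus strand) and -0.04 (-0.53 to 0.45) for Slc30a6 (chr17:74395608-74424221, plus strand). The exporter genes had 0.28 (-0.11 to 0.68) for Slc30a1 (chr1:191906767-191913247, plus strand) and 0.29 (-0.08 to 0.67) for Slc30a10. Without the VGAT+PITX3 plate at P0 the value of Slc30a1 was 0.0793, and without that at E16 it was 0.51 and that of Slc30a10 0.14. Slc30a1 had its highest value on the VGAT+PITX3 plate at P0, 35.9 CPM, against 25.1 CPM at E16 and between 20.4 and 29.4 CPM on VGAT plates. The upper or lower ends of these intervals allow changes of up to a log2 of 0.76 in size, far under that of Slc30a3. The median over the members was -0.04, against -0.00 over all genes.

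Slc30a4 lay between 16.1 and 31.7 CPM on VGAT plates and at 29.4 and 24.7 CPM on VGAT+PITX3 plates. Slc30a5 lay between 19.6 and 34.5 CPM and at 23.5 and 18.8 CPM, and its partner gene Slc30a6 between 13.1 and 21.0 CPM and at 18.8 and 11.7 CPM. For each of these 3 genes the groups overlapped. In cells thinned to 4000 counts, Slc30a9 was found in 31.9 ± 2.55% of VGAT cells at E16 and 29.7 ± 6.09% at P0, and in 33.1% and 25.7% of VGAT+PITX3 cells. This share was near that of Slc30a3 in VGAT cells, and Slc30a3 was the member whose share fell under 1% in VGAT+PITX3 cells. Slc30a10 (5.95 ± 2.82%) and Slc30a6 (6.83 ± 1.88%) were found in the fewest VGAT cells at E16. On each of the 9 plates the median thinned cell held counts of 1 of the 8 members. In these plate sums, fewer cells with a gene and less of its RNA per cell cannot be told apart. Shares of cells with a count do not separate them either, since less RNA per cell also lowers such a share.

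Whether the stage difference depended on the sort was asked with the interaction term over 9 plates. It passed the threshold for 0 of 15724 genes (percent called 0), and for 0 of 8 members with edgeR and with DESeq2, with 0 members at an unadjusted p under 0.05. Over all genes DESeq2 called 3, edgeR without the filter on low counts called 66 (0 members), and 998 genes had an unadjusted p under 0.05 with edgeR. The intervals were wide, such as -3.51 to 1.22 for Slc30a3 and -1.02 to 0.51 for Slc30a10, and for Slc30a9 -0.65 to 0.41. A lone VGAT+PITX3 plate stands for each stage and is assumed to vary as VGAT plates do. On these plates Slc30a3 had only 4 counts and 1 count.

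The other genes of zinc handling were taken from a list of 21: the 14 Slc39 genes, the other 2 Slc30 genes, the metallothionein genes Mt1, Mt2 and Mt3, the zinc sensor gene Mtf1 and Tmem163. Between the sorts 17 were tested, and 2 rose and 0 fell on VGAT+PITX3 plates, close to the 8.93% called over all genes. Slc39a4, which encodes the zinc importer ZIP4, had between 0 and 3 counts on each VGAT plate and 26 and 28 counts on the VGAT+PITX3 plates (log2 difference 4.38, edgeR). It passed the filter on low counts only through the VGAT+PITX3 plates, so that its call is no support, and its fitted size depends on the prior count. In CPM it lay between 0 and 0.595 on VGAT plates and at 5.88 and 12.6 on VGAT+PITX3 plates. Tmem163, which encodes a zinc transporter of vesicles and the plasma membrane, lay between 35.9 and 90.0 CPM on VGAT plates and at 154 and 158 CPM on VGAT+PITX3 plates (1.62, SE 0.21, adjusted p = 0.000113, edgeR). The median over the list was 0.10, against -0.00 over all genes. Between the stages 0 of 14 tested genes of the list passed the threshold, with 5 at an unadjusted p under 0.05 (3284 of 13639 genes). Between Six3 and Pax5 cells 0 of 16 did, with 1 at an unadjusted p under 0.05 (1286 of 11773 genes).

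Most members were counted mainly from exons. Exonic counts made up 99.9% of the counts of Slc30a1 and 99.5% of those of Slc30a3, 93.8% for Slc30a10, 89.4% for Slc30a4 and 87.6% for Slc30a9. Slc30a5 (77.1%), Slc30a6 (76.9%) and Slc30a7 (64.3%) had lower shares, against between 70.0% and 79.9% over all genes on the 9 plates. With exonic counts alone, the fit between the sorts again called Slc30a3 and 0 other members, with 1190 of 13465 genes called. In GENCODE vM21, 8 genes overlap 5 of the members, all on the opposite strand, and 0 of them reach the last 2000 bases of a member, where 3' counts gather. Dnajc5g, on the opposite strand, overlaps the upstream start of Slc30a3.

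**Figure D5:**
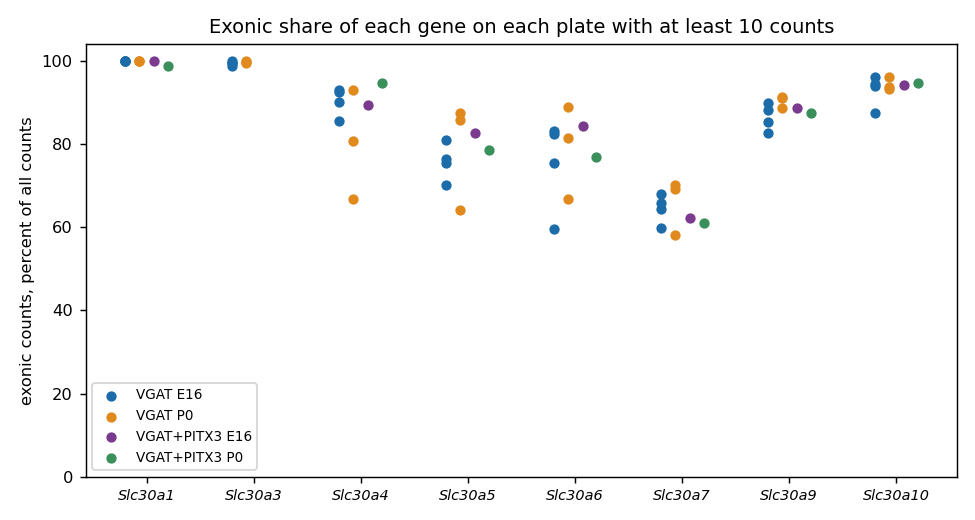
Exonic counts as percent of all counts (vertical axis) of each gene on each plate with at least 10 counts of it, by group. Slc30a1 and Slc30a3 lie at or above 98.8% on all plates shown, and Slc30a7 lies between 58.2% and 70.1%.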

How the data were processed

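Cells of the ventral midbrain were sequenced by SORT-seq on 9 plates. Per the methods and the labels, the authors aligned reads to GRCm38 (mm10) with STAR and counted distinct molecular barcodes per gene and well over exons (spliced) and over exons and introns (total). The deposited values are expected counts, which the authors corrected for molecules sharing a barcode and left unscaled. Of the values above 0, 100% were within 0.001 of what a barcode of 6 random bases gives. The methods of the paper state a shorter barcode. Strandedness of counting is not given in the sources used here.

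A well was kept if it had 2000 or more genes and no more than 50000 counts, spike-ins left out, and under 15% mitochondrial counts. Doublets were not called, and leaving out cells over 2 times the median count of their plate was an alternative. Plate sums of the counts were rounded and, after the filterByExpr filter and TMM scaling, compared by the quasi-likelihood test of edgeR 4.0.16 (R 4.3.3). P-values were adjusted over all genes (Benjamini-Hochberg, threshold 0.05). Levels are TMM-scaled CPM of plate sums. Plain CPM was used for cell splits, marker-defined cells, counting ratios, the levels of 3 counts, Pitx3 and the summed cell type markers. Alternatives were DESeq2 1.42.0, RLE factors, no filter, spliced counts, 3000 or 1000 genes per cell, each plate left out, a replicate block, and other depths. Python 3.11.15 was used for cell counts.

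The members and lists were chosen with earlier results of these data known. Named genes were the 8 members, zinc genes past the threshold (up to 4 each way), and the 3 genes most like each member past the threshold between stages or sorts.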

Additional observations from a re-analysis of the deposited data

How the results depend on the processing

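The count of members past the threshold was the same under the alternatives, 0, 1, 0 and 0 for stage, sort, interaction and Six3 against Pax5 cells, save that without VGAT E16 replicate 2 Slc30a10 was called between the stages, so that leaving out plates gave between 0 and 1. Slc30a3 was called between the sorts under all 16 alternatives, with log2 differences from -7.91 to -6.77, as were Slc39a4 (4.12 to 4.72) and Tmem163 (1.28 to 1.99). The VGAT+PITX3 plates could not be left out of the interaction. The replicate numbers do not pair plates (r of deviations for equal numbers 0.03, 0.05 and 0.01). With the replicate block, over replicates 1 to 3 of each stage, 0 members were called. Over all genes the stage comparison called 202 with the block, 624 without it, between 76 and 833 with a plate left out (76 without VGAT P0 replicate 3, 92 without VGAT E16 replicate 3), 944 with DESeq2 and 1588 without a filter. Over all alternatives the sort comparison called between 625 and 1669 genes (1306 as reported), the interaction between 0 and 66 (0 as reported) and Six3 against Pax5 cells between 148 and 541 (332 as reported). Members changed sign in places, without a call on either side. Between the stages, Slc30a5 was at 0.0934 with the block, and Slc30a6 at -0.0693 without a filter. With stage from the second label, chosen after seeing the data, Slc30a3 was at -0.16, Slc30a4 at 0.27, Slc30a5 at 0.38 and Slc30a10 at -0.0835. Between the sorts, Slc30a6 was at 0.0521 with spliced counts, 0.00756 with at least 3000 genes and 0.0128 with at least 1000 genes, and Slc30a7 was at 0.00388 without cells of over 2 times the median count. Between Six3 and Pax5 cells, Slc30a4 was at 0.0128 without a filter and 0.0141 with spliced counts. With a plate left out, the stage value of Slc30a4 ran from -0.54 to -0.11, and stage values ran from -0.0363 to 0.18 for Slc30a1, -0.16 to 0.11 for Slc30a5, -0.0874 to 0.16 for Slc30a6 and -0.0755 to 0.0457 for Slc30a9. Sort values ran from -0.48 to 0.20 for Slc30a6, -0.17 to 0.0938 for Slc30a7, 0.0793 to 0.51 for Slc30a1 and 0.14 to 0.40 for Slc30a10, and the interaction of Slc30a4 from -0.14 to 0.28. Values of Six3 against Pax5 cells ran from -0.39 to 0.00101 for Slc30a1, -0.00596 to 0.17 for Slc30a3, -0.0656 to 0.0552 for Slc30a4, -0.18 to 0.12 for Slc30a5 and -0.58 to -0.16 for Slc30a10. The cause of these changes was not tested. The mean share of VGAT cells with Slc30a3 was 32.1% at 4000 counts, 52.0% at 8000, 69.1% without thinning and 8.17% for at least 2 counts, against 0.535%, 0.201%, 0.678% and 0% of VGAT+PITX3 cells. Levels under those of 3 counts are not resolved on a plate.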
